A study of Mus musculus with 2 samples.

Results

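The genes described here are the large molecular chaperones: the HSP70, HSP90 and HSP110 families, the J-domain proteins of the DNAJA, DNAJB and DNAJC classes, the chaperonins and the UNC45 proteins. They were chosen by gene symbol among protein-coding genes (names starting with Hspa, Hsp90, Dnaja, Dnajb, Dnajc or Cct and a number, plus Hsph1, Hspd1, Hspe1, Tcp1, Unc45a and Unc45b), which gave 75 of 22028 protein-coding genes. Their RNA was measured by stranded total RNA-seq in a calf muscle, the gastrocnemius, from 2 male mice aged 25 days. Both were first-generation hybrids of C57BL/6J and CAST/EiJ (strain B6CASTF1/J), with no treatment named in the labels. Each gave 1 library from 300 ng of RNA with ERCC spike-in RNAs added. The labels number the tissues as different males but give them the same donor entry, so the spread between the libraries may be partly technical. The 2 libraries form 1 group, and the data describe levels in this muscle and the spread between animals. Levels are in TPM, a unit that corrects for transcript length and sums to the same total in each library, and errors are SD over n = 2. The libraries held 35098487 and 37428588 expected counts. All 7 skeletal muscle fibre markers were detected, Acta1, Ckm and Myh4 among them, and all 6 male germ cell markers were under the detection level, with 5 of them at 0 counts in both animals. Whole muscle holds several cell types, and in such bulk RNA fewer cells of a type and less RNA per cell cannot be told apart.

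Chaperones bind proteins that are unfolded, partly folded or changing shape. HSP70 proteins bind and release short exposed stretches of a client in a cycle driven by ATP; J-domain proteins bring clients and start the hydrolysis, and HSP110 proteins and BAG proteins release the ADP. HSP90 acts later on nearly folded clients such as kinases and steroid receptors, with co-chaperones that tune its cycle. The chaperonins TRiC (in the cytosol) and HSPD1 with HSPE1 (in mitochondria) fold proteins inside a chamber; actin and tubulin are obligate clients of TRiC. In striated muscle the HSP90 partner UNC45B is needed to fold the motor domain of myosin. Several of these genes are induced by heat through HSF1, and those of the endoplasmic reticulum (ER) by the unfolded protein response, while others are expressed in all cells without stress.

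At TPM of 1 or more in both animals, 65 of the 75 genes were detected, against 45.2% of all protein-coding genes. The median over the 75 genes was 9.77 TPM, against 0.655 TPM over all protein-coding genes. Of the 75, 36 stood at 10 TPM or more in both animals and 3 at 100 TPM or more: Hspa8, Hsp90ab1 and Hspa9. In animal 1 the 75 genes together took 0.535% of the TPM of nuclear protein-coding genes, and in animal 2 0.571%. Hspa8 and Hsp90ab1 alone held 33.4% and 34.4% of the 75 genes' sum, and the first 10 genes 59.4% and 60.4%. The 10 genes that were not detected were Cct6b, Cct8l1, Dnajb3, Dnajb7, Dnajb8, Dnajb13, Dnajc6, Dnajc22, Dnajc5b and Dnajc5g. None of these 10 passed 0.1 TPM or 12 expected counts in either library. Dnajb8, Dnajb13, Dnajc5b and Dnajc5g had 0 counts in both; a count of 0 leaves room for 3, which is 0.0888 CPM in animal 1 and 0.0781 CPM in animal 2 at the scaled library sizes (CPM are counts brought to a common library total). Cct6b is known as a testis form of a TRiC subunit and Dnajc6 as the auxilin of neurons.

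**Figure D1:**
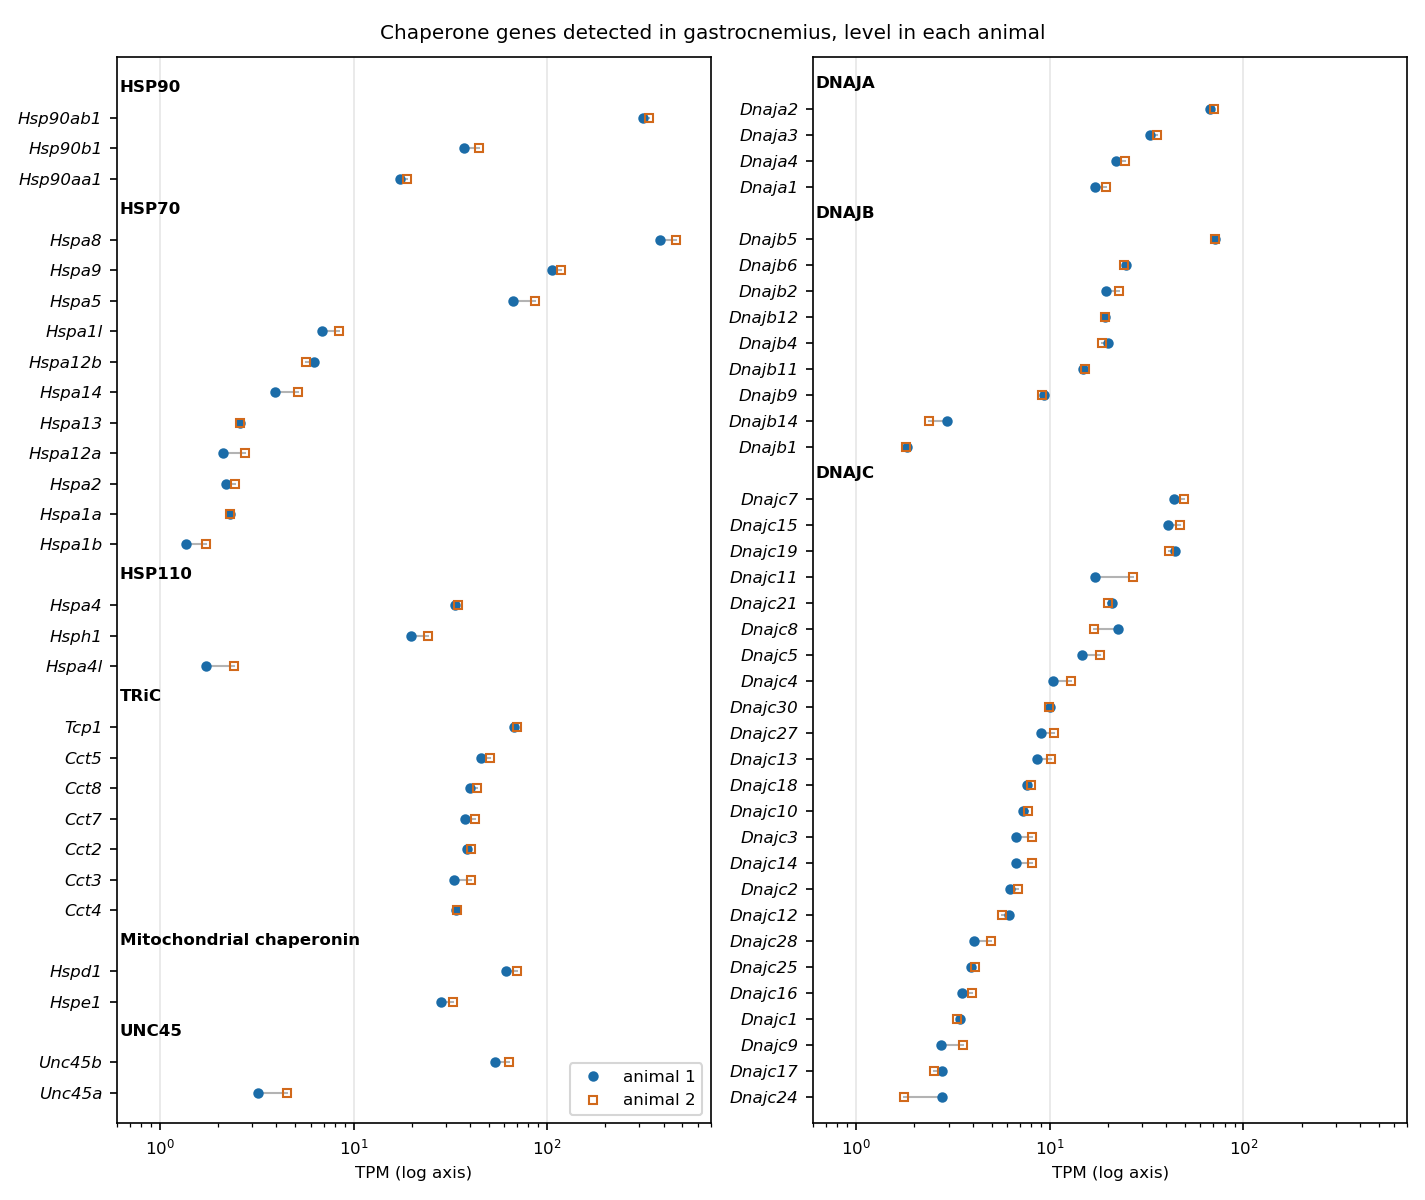
Level in TPM (log axis) of the 65 detected chaperone genes, by family, with a filled circle for animal 1 and an open square for animal 2. Hspa8, Hsp90ab1 and Hspa9 lie above 100 TPM, while the classical heat-inducible genes Hspa1a, Hspa1b and Dnajb1 lie near 2 TPM.

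Among the 3 genes named Hsp90, most of the level was carried by the constitutive cytosolic form. Hsp90ab1 (chr17:45567775-45573271) stood at 312 TPM in animal 1 and 336 TPM in animal 2. Its heat-inducible paralog Hsp90aa1 (chr12:110690605-110702728) stood at 17.4 and 19.0 TPM, and the ER form Hsp90b1, also known as GRP94, at 37.2 and 44.4 TPM. The 3 genes did not overlap, and Hsp90ab1 was 17.8 ± 0.191-fold above Hsp90aa1. The second transcript table deposited for each library gave 14.5-fold in both animals. Hsp90ab1 held 85.1% and 84.1% of the TPM of these 3 genes, Hsp90b1 10.2% and 11.1%, and Hsp90aa1 4.74% and 4.76%. Trap1, the mitochondrial HSP90 (39.9 and 42.1 TPM), falls outside the symbol rule and outside these shares. It is counted among the co-chaperone genes below. Hsp90aa1 has processed copies in the genome, and 53.2% of the 100-base windows in its leading transcript also occurred in transcripts of other genes. The main copy, Gm12346, was given 34.2 and 36.3 counts beside 1065 and 1260 for Hsp90aa1.

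**Figure D2:**
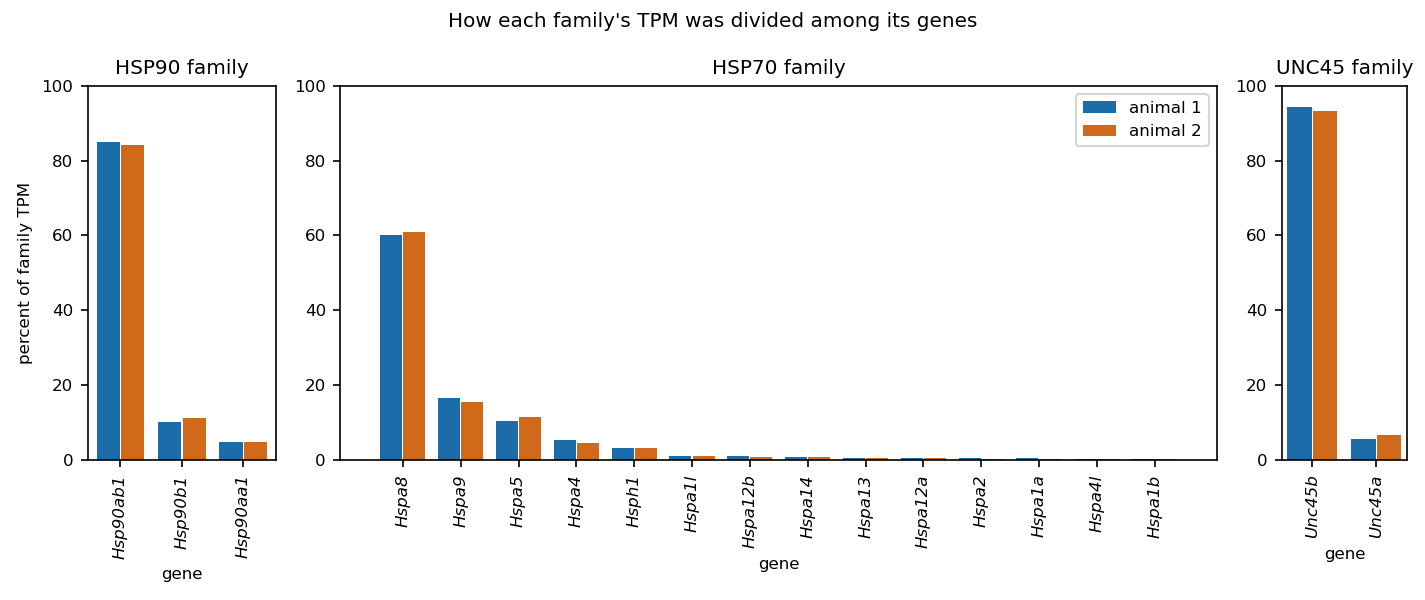
Percent of each family's summed TPM held by each gene, in blue for animal 1 and orange for animal 2. The HSP90 panel holds the 3 genes named Hsp90, without Trap1, and the HSP70 panel the HSPA genes and Hsph1. Hsp90ab1 took 84.1% to 85.1%, Hspa8 60.03% to 60.9% and Unc45b 93.4% to 94.4% of the sums of their panels.

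The HSP70 family was led by Hspa8, the constitutive cytosolic HSC70 (chr9:40800984-40810087), at 383 TPM in animal 1 and 463 TPM in animal 2. It held 60.03% and 60.9% of the TPM of 14 genes (the HSPA genes and Hsph1). Next came the mitochondrial form Hspa9 (mortalin) at 106 and 118 TPM, 16.6% and 15.5% of the family, and the ER form Hspa5 (BiP) at 66.6 and 86.7 TPM, 10.4% and 11.4%. The ranges of these 3 genes did not overlap each other. Hspa8 has many processed copies in the genome, and 73.2% of the 100-base windows in its leading transcript also occur in transcripts of 7 other genes. Among them, the processed pseudogene Gm15459, was listed at 81.5 and 110 TPM with 4331 and 6212 expected counts, so it would rank above Hspa5 if taken at face value. The 7 copies together made 18.4% and 20.3% of their joint sum with Hspa8. Gm15459 differed between the libraries in the same direction as Hspa8 (log2 ratio of animal 2 over animal 1, 0.34). RNA of the pseudogene and Hspa8 reads assigned to it cannot be told apart from these tables. With the copies added to Hspa8, its share of the family was 65.5%.

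The heat-inducible HSP70 genes were low. Hspa1a (chr17:34969190-34972156) was at 2.29 TPM in both animals, and Hspa1b (chr17:34956436-34959238) at 1.37 and 1.72 TPM. The deposited posterior intervals of these neighbours in level lay apart in animal 1 (1.88 to 2.63 TPM for Hspa1a, 1.03 to 1.69 TPM for Hspa1b). In animal 2 they overlapped (1.86 to 2.63 and 1.34 to 2.07 TPM). Hspa8 was 185 ± 24.6-fold above Hspa1a and 274 ± 7.49-fold above Hspa1b. The duplicated genes lie 12918 bases apart, start to start, and 47.1% of Hspa1a's windows also occur in Hspa1b, so the split between them is uncertain. Hspa1l, known mainly as a testis gene, lies head to head with Hspa1a, 547 bases away by annotated starts. At 6.86 and 8.39 TPM it was 3.33 ± 0.472-fold above Hspa1a, with only 5.65% of its windows shared. The J-protein partner of the inducible HSP70, Dnajb1 (HSP40), was likewise low at 1.82 and 1.80 TPM, on 151 and 159 counts.

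The promoters of Hspa1a and Hspa1b are shown because they are the textbook heat-shock promoters and because the duplication reaches into them. The windows given by RefSeq on GRCm38.p6 run from 250 bases before the start to 50 after it, and these were the same at 296 of 300 positions. The stretches printed here are on the minus strand, end 47 bases before the start, lie outside annotated exons and are identical to each other. Capitals mark 2 inverted units of GAA with 2 bases between (GAANNTTC), the core of a heat shock element, the site that HSF1 is known to bind.
Hspa1a, chr17:34972203-34972310: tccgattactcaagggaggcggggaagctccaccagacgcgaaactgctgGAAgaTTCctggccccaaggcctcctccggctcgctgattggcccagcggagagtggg
Hspa1b, chr17:34959285-34959392: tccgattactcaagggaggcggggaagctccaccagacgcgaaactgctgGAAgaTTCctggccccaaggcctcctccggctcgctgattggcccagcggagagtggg
Matches to such 2-unit elements (GAANNTTC or TTCNNGAA, each its own reverse complement, and both contained in the 3-unit form) were frequent: 17.0% of the 27025 genes with a window held one, and 15 of the 61 chaperone genes with a window did.

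Other HSP70 genes spanned a narrow low range. Hspa12b, an endothelial divergent HSP70, was at 6.27 and 5.65 TPM and its paralog Hspa12a at 2.11 and 2.75. Hspa14, which works at the ribosome, was at 3.92 and 5.15 TPM. Hspa13, an HSP70 of the microsomal fraction, was at 2.59 and 2.58 TPM, and Hspa2, best known in male germ cells, at 2.19 and 2.45. These 5 genes lay within 2.11 to 6.27 TPM, well below Hspa5. Among the HSP110 nucleotide exchange factors, Hspa4 stood at 33.3 and 34.8 TPM and Hsph1 at 19.9 and 24.1 TPM, with no overlap. The third HSP110 gene within the symbol rule, Hspa4l, was at 1.72 and 2.42 TPM. Hyou1, an ER member of the HSP70 superfamily, falls outside that rule and outside the HSP70 shares. It is counted among the nucleotide exchange factors below.

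The ER set was Hspa5, Hsp90b1 and their J-domain partners. Hspa5 was 1.87 ± 0.116-fold above Hsp90b1, and 2.01- and 2.34-fold in the second transcript table. Among the J-proteins named ERdj, Dnajb11 (ERdj3) stood at 14.9 and 15.2 TPM. Dnajb9 (ERdj4) was at 9.35 and 9.07 TPM, then Dnajc10 (ERdj5, a disulfide reductase) at 7.27 and 7.76 TPM and Dnajc3 (ERdj6, or p58IPK) at 6.67 and 8.12 TPM. Dnajc10 and Dnajc3 overlapped in their ranges. Dnajc1 (ERdj1) was at 3.42 and 3.32 TPM. The ER membrane J-proteins Dnajb12 and Dnajb14 lay above and below all of these, at 19.4 and 19.3 TPM and at 2.96 and 2.39 TPM.

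Of all 61 genes with a promoter window, exactly 3 held a complete ER stress element, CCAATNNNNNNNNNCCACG on either strand, and all 3 work in the ER: Hspa5, Hsp90b1 and Dnajc3. In all, 37 of 27025 genes with a window, 0.137%, held this element. The element is known as the site where NF-Y and ATF6 bind in the unfolded protein response. Sequences are given in the direction of each gene, from the RefSeq windows on GRCm38.p6, with the CCAAT and CCACG parts (or their reverse complements) in capitals.
Hspa5, chr2:34772020-34772048, plus strand: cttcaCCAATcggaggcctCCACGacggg
Dnajc3, chr14:118937767-118937905, plus strand: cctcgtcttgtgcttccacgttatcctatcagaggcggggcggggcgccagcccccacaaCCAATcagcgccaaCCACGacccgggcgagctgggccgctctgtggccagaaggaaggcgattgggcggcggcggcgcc
Hsp90b1, chr10:86705510-86705694, minus strand: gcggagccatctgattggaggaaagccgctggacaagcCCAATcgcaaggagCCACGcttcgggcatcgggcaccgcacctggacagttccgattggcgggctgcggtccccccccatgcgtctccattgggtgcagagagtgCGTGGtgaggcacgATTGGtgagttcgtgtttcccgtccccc
Hsp90b1 carried 2 copies in opposite orientation, at -212 to -194 and -107 to -89 from its start. The Hspa5 copy lay at -65 to -47, inside the first exon of the transcript Hspa5-201 and upstream of the leading transcript Hspa5-202. That of Dnajc3 lay at -105 to -87, outside annotated exons. Dnajb11, Dnajb9, Dnajc10 and Dnajc1 had a window without this exact element. The shorter UPR element TGACGTGG was found in 1 chaperone gene, Dnajc25, against 0.714% of all genes.

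The mitochondrial chaperonin genes Hspd1 (HSP60, the barrel) and Hspe1 (HSP10, the lid) stood at 61.5 and 69.8 TPM and at 28.3 and 32.7 TPM. Hspd1 was 2.15 ± 0.0246-fold above Hspe1, a ratio that moved little between the animals. The second transcript table gave 1.49- and 1.60-fold. Both genes share windows with other transcripts, 26.9% for Hspd1 and 20.4% for Hspe1. The gene sharing with Hspe1, AC117239.2, was given 127 and 111 counts beside 552 and 676 for Hspe1. The genes lie head to head on chromosome 1, Hspd1 at chr1:55077835-55088243 on the minus strand and Hspe1 at chr1:55088132-55091307 on the plus strand, with 112 bases shared.

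The stretch between the Hspe1 start and the downstream RefSeq start of Hspd1 held 4 units of GAA in alternating orientation with 2 bases between, which counts as 2 overlapping matches to the 3-unit heat shock element (GAANNTTCNNGAA or its reverse complement TTCNNGAANNTTC). It lay at -89 to -72 from the RefSeq start of Hspe1, in the first exon of the transcript Hspd1-202, and upstream of the leading transcript Hspd1-201. The other promoters with a 3-unit match are printed beside it, with the units in capitals, because few genes had one. Only 179 of 27025 genes with a window (0.662%) had such a match, and 4 of the 61 chaperone genes did: Hspd1, Hspe1, Hsph1 and Dnajb6. Hspd1 and Hspe1 are both counted for the same stretch.
Hspe1 and Hspd1, chr1:55088053-55088082, shown on the plus strand: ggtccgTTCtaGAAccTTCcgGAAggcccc
Hsph1, chr5:149636280-149636308, minus strand: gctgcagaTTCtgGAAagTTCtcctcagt
Dnajb6, chr5:29735844-29735872, plus strand: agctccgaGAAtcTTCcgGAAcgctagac
In Hsph1 the match lay 15 to 27 bases after the nearer of 2 RefSeq starts, in the first exon of 4 annotated transcripts. In Dnajb6 it lay at -46 to -34 from the upstream start, within the first exon of its leading transcript Dnajb6-201 and of an overlapping gene, Gm5129. Levels of the 4 genes were not alike: they ran from 19.9 TPM (Hsph1, animal 1) to 69.8 TPM (Hspd1, animal 2). Cct4, Dnajc2, Dnajc5, Dnajc5b, Dnajc11, Dnajc12, Dnajc18, Dnajc22, Dnajc30, Hsp90aa1, Hsp90ab1, Hspa8, Hspa9 and Hspa13 had no entry in the promoter table.

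**Figure D3:**
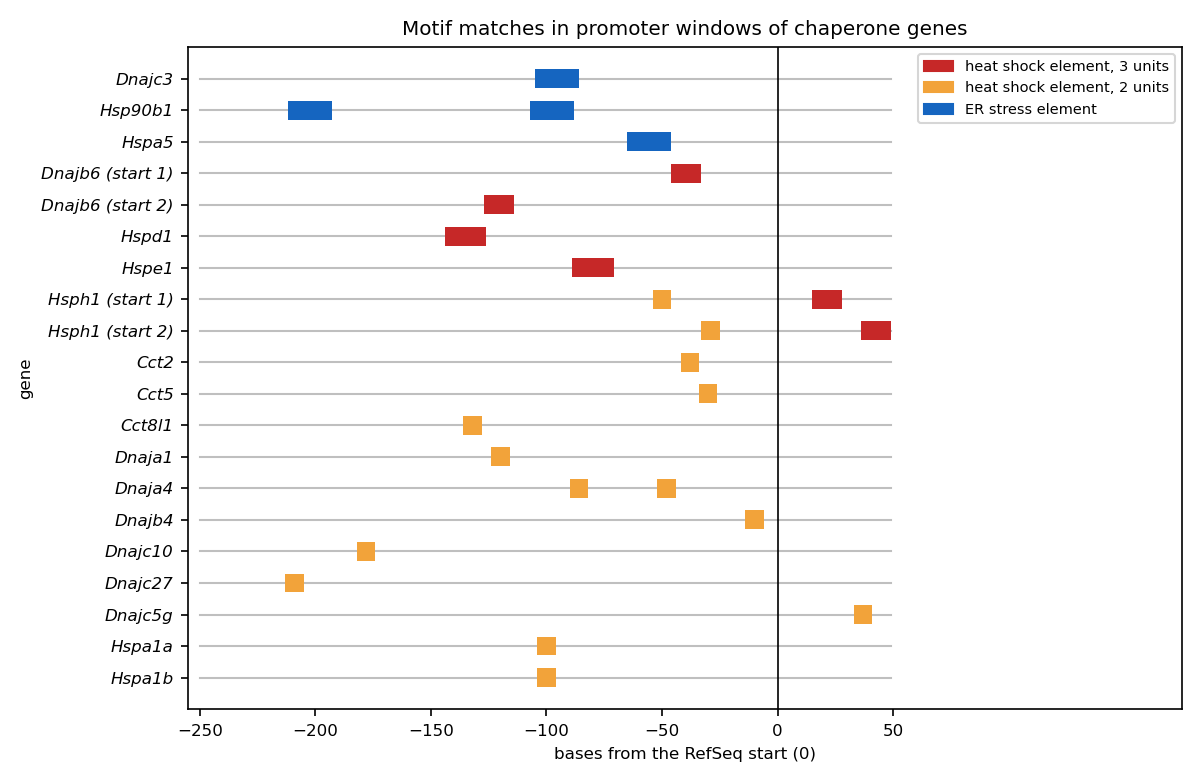
Positions of motif matches, in bases from the RefSeq start (vertical line at 0), in the promoter windows of chaperone genes that held a match; each grey line is 1 window, and genes with matches at 2 starts have 2 lines. ER stress elements (blue) were found in 3 genes, 3-unit heat shock elements (red, which contain and cover 2-unit matches) in 4, and 2-unit matches (orange) in further genes including Hspa1a and Hspa1b.

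The cytosolic chaperonin TRiC is built of stacked rings of 8 different subunits, which share each ring in equal numbers. Tcp1 (CCT1) was the highest at 67.6 and 69.7 TPM, and Cct5 was next at 45.4 and 50.9 TPM. Both lay above every other subunit in both animals. Cct8 (40.1 and 43.4 TPM), Cct7 (37.9 and 42.2), Cct2 (38.5 and 40.5) and Cct3 (33.1 and 40.6) overlapped. Cct4 was at 33.7 and 34.4 TPM, within the range of Cct3. The eighth subunit, Cct6a, was at 27.6 and 32.5 TPM and below the others in both animals; it is typed as a processed transcript in the GENCODE M21 annotation, so it is outside the 75 genes. From Tcp1 to Cct6a the spread was 2.45-fold in animal 1 and 2.14-fold in animal 2. The second table put Tcp1 first as well, but its lowest subunit was Cct3 and the spread of means was 2.95-fold. The order below Cct5 therefore depended on the quantification. The testis-type relatives Cct6b and Cct8l1 were not detected.

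**Figure D4:**
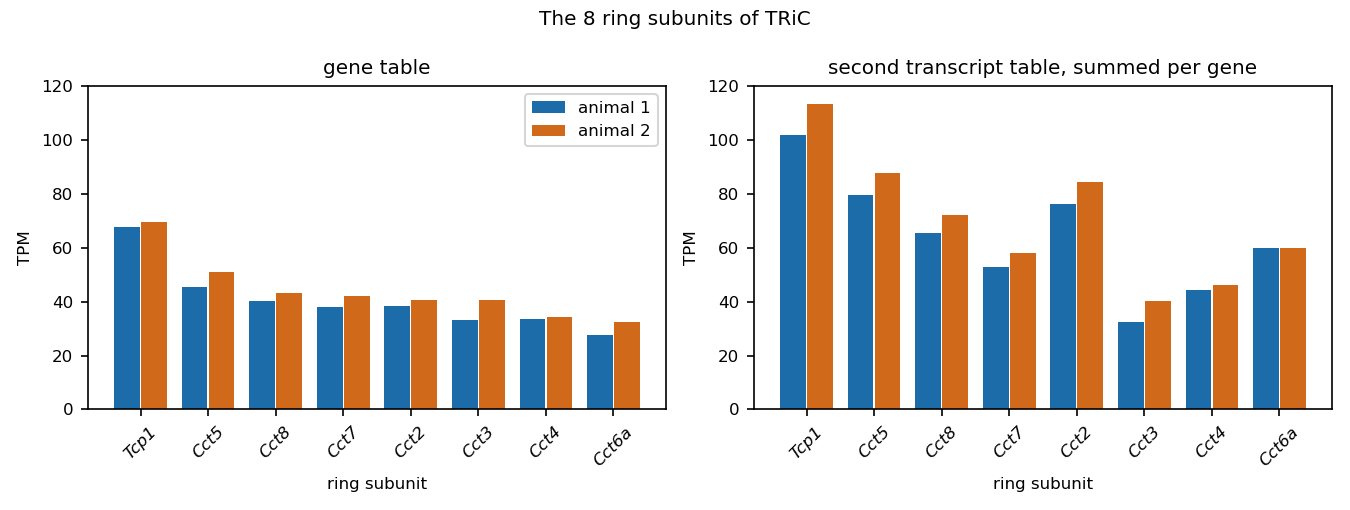
TPM of the 8 TRiC ring subunits, in blue for animal 1 and orange for animal 2, in the gene table (left) and in the second transcript table summed per gene (right). Tcp1 is highest in both tables; the lowest subunit is Cct6a on the left and Cct3 on the right.

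Of the myosin chaperones, the striated muscle form carried nearly all of the level. Unc45b stood at 53.9 and 63.8 TPM, and Unc45a, the general form, at 3.22 and 4.54 TPM. Unc45b held 94.4% and 93.4% of their sum and was 15.4 ± 1.90-fold above Unc45a. Smyd1, a muscle methyltransferase that works with UNC45B and HSP90 on myosin, was at 114 and 125 TPM, the highest of 17 HSP90 and HSP70 co-chaperone genes.

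All 4 DNAJA genes, the classical HSP40s with a zinc finger, were detected. Dnaja2 led at 67.1 and 70.6 TPM, 3.77 ± 0.225-fold above Dnaja1, the farnesylated partner of HSPA8, at 17.1 and 19.6 TPM. The mitochondrial Dnaja3 (TID1) was at 33.1 and 35.6 TPM and Dnaja4 at 21.9 and 24.4 TPM. Dnaja1 also has processed copies: 70.6% of its windows occur elsewhere, and the copy Gm15542 was given 94.5 and 40.4 counts beside 728 and 859.

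Of the 13 DNAJB genes, 9 were detected. The highest, Dnajb5, stood at 71.5 and 71.7 TPM, which made it 39.6 ± 0.376-fold higher than the heat-inducible Dnajb1. The second transcript table gave 39.6- and 47.7-fold. Dnajb6, whose mutations cause a limb-girdle muscular dystrophy in humans and which works at the Z-disc with BAG3, was at 24.6 and 24.03 TPM. Dnajb2 stood at 19.6 and 22.8 TPM and Dnajb12 at 19.4 and 19.3 TPM, and the range of Dnajb4 (19.97 and 18.6 TPM) overlapped both. The remaining detected genes were Dnajb11, Dnajb9, Dnajb14 and Dnajb1. Dnajb6 shares 31.0% of its windows with other transcripts, and its copy Gm2541 was listed at 7.92 and 9.14 TPM.

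Of the 28 DNAJC genes, 24 were detected. The highest by mean was Dnajc7 (43.9 and 49.3 TPM), a co-chaperone with TPR repeats that binds both HSP70 and HSP90. Dnajc15 (40.8 and 46.9 TPM) and Dnajc19 (44.6 and 41.1 TPM) belong to the import motor of the mitochondrial inner membrane, and the ranges of these 3 genes overlapped. Dnajc11, an outer mitochondrial membrane protein tied to the MICOS complex, came next at 17.0 and 26.9 TPM, followed by Dnajc21, a factor of ribosome assembly, at 20.9 and 19.9 TPM. Dnajc5, the cysteine string protein of vesicle release, was at 14.6 and 18.1 TPM. The other detected DNAJC genes ran down to Dnajc24, which serves diphthamide synthesis, at 2.79 and 1.76 TPM on 45 and 51 counts. In Dnajc11 the TPM differed by 0.66 on the log2 scale while the count ratio differed by 0.12. The share of its TPM held by the leading transcript Dnajc11-201 was 60.5% in animal 1 and 36.2% in animal 2. In the second table that share was 15.6% and 14.9% and the level 55.3 and 65.5 TPM. The part of the transcript split in the TPM difference was not tested.

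The libraries were then compared gene by gene, with the log2 ratio of expected counts of animal 2 over animal 1 scaled by TMM and an exact binomial test adjusted over all 14754 genes tested. This test compares 2 libraries of 1 group and covers sampling error alone; an exact test over 2 animals cannot go below p = 0.5. All 65 detected genes were tested, and none passed an adjusted p of 0.05 with a difference over 2-fold, against 1.78% of all genes tested. At the adjusted p alone, 8 were higher in animal 2, against 8.1% of all genes, and 4 were lower, against 6.99%. The test finds smaller differences in abundant genes. Among the 36 chaperone genes at a mean of 10 TPM or more, 7 were higher and 4 lower, where 17.1% and 13.4% of 3769 protein-coding genes at that level were. These counts were near the background, and the median log2 ratio of the 65 genes was 0.05, against 0.01 over all genes tested.

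The 8 higher genes were Hspa8 (log2 ratio 0.28), Hspa5 (0.28), Dnajc5 (0.27), Dnajc3 (0.18), Cct3 (0.15), Unc45b (0.14), Hspd1 (0.10) and Hsp90b1 (0.10). The adjusted p of the exact binomial test was 1.54e-79 for Hspa8, on 17063 and 23504 counts, and 4.08e-21 for Hspa5, on 4475 and 6171 counts. It was 0.039 for Hsp90b1 and 0.0316 for Cct3. The ER J-proteins Dnajb11 (-0.07), Dnajb9 (-0.15), Dnajc10 (-0.01) and Dnajc1 (-0.07) did not pass. The 4 lower genes were Dnajc8, a splicing-related J-protein (-0.35, 22.6 and 17.0 TPM), Dnajb4 (-0.18), Dnajb5 (-0.11) and Hsp90ab1 (-0.07). The direction of the last 2 depended on the scaling: by the ratio of TPM Dnajb5 was at 0.0034 and Hsp90ab1 at 0.11, and by library totals Hsp90ab1 was at 0.02. Over the nuclear protein-coding genes with a mean of 10 TPM or more, the median ratio was 0.02 under TMM and 0.11 under library totals. With library totals the split was 25 higher and 1 lower in place of 8 and 4, and only Dnajc8 stayed lower. The shares of all genes tested moved as well, to 19.9% higher and 4.10% lower in place of 8.1% and 6.99%.

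**Figure D5:**
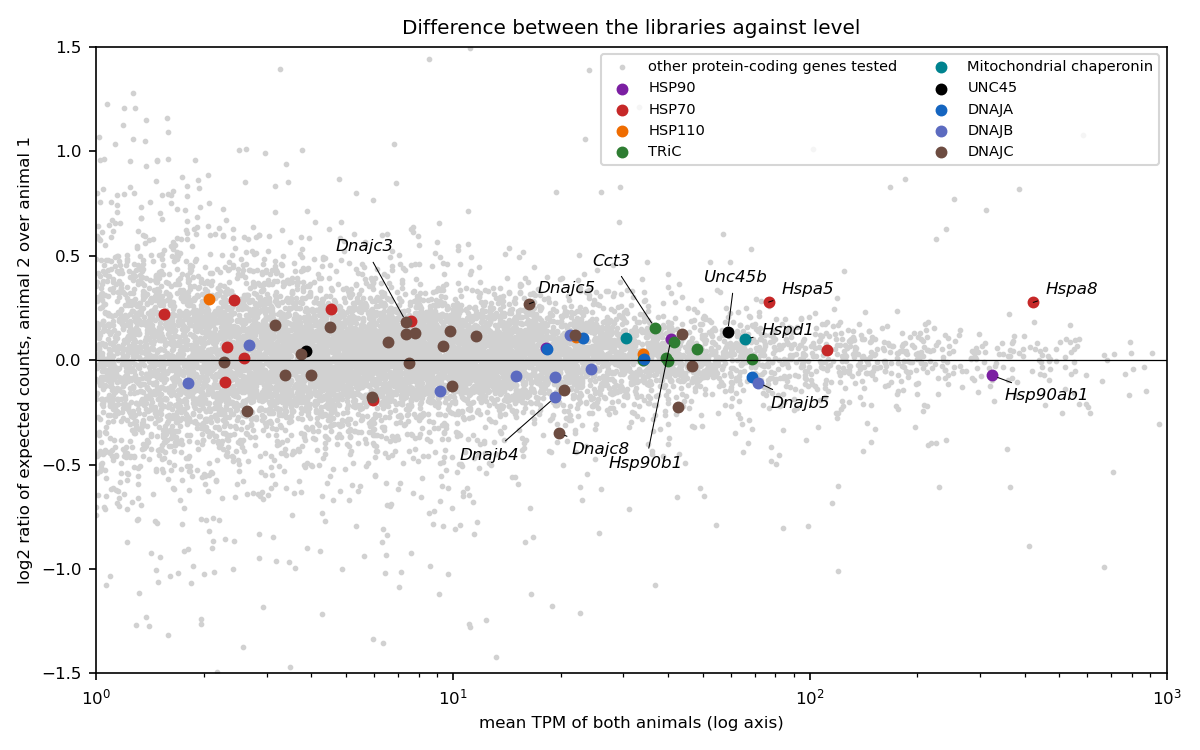
Log2 ratio of TMM-scaled expected counts, animal 2 over animal 1, against mean TPM (log axis) for 65 chaperone genes, coloured by family, and 10109 other nuclear protein-coding genes (grey; 54 more lie outside the axes). The 12 named genes passed the adjusted p of the exact binomial test, and every chaperone gene lies within the 2-fold limits at -1 and 1.

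The animals also differed in cell type and fibre markers, and the part of these in the differences above was not tested. All 6 slow-fibre genes were higher in animal 2, with a summed level of 1035 TPM in animal 1 and 1924 TPM in animal 2. Of 6 Schwann cell genes 5 were higher (sums of 54.2 and 110 TPM), and of 5 fibroblast genes 4 were lower (1735 and 1140 TPM), with Col1a1 (-0.99) and Col1a2 (-0.89) furthest. Of 7 skeletal muscle fibre genes 6 were lower by TMM-scaled counts, Myh4 (-0.23) and Tnnt3 (-0.24) among them, and 1 was higher. Their sums were 91433 and 91490 TPM. By TPM 4 of the 7 were higher in animal 2, so the direction of some depended on the scaling. Ckm (16559 and 17387 TPM) and Mylpf (18493 and 19205 TPM) were such genes. Of 5 endothelial genes 2 were higher (50.8 and 58.4 TPM), of 5 red blood cell genes 3 were lower (587 and 539 TPM), and of 5 macrophage genes 1 was lower (26.1 and 25.6 TPM). Of 7 immediate early genes 4 were lower (39.3 and 32.1 TPM). All 4 neuron markers were under the detection level, with sums of 0.25 and 0.13 TPM.

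Partners of these chaperones were counted in lists chosen by function, to be read against the 8.1% of all genes tested that were higher in animal 2 and the 6.99% that were lower, or 17.1% and 13.4% at 10 TPM or more. Of the 6 HSF genes and regulators, 5 were tested and none passed: Hsbp1, a binder of HSF1, was highest at 47.1 and 54.3 TPM, with Hsf1 at 14.6 and 18.1 TPM and Hsf2 at 8.3 and 9 TPM. Of the 17 co-chaperones, Ahsa1, which stimulates the HSP90 ATPase, was higher (0.13; adjusted p of the exact binomial test 0.0475). Fkbp5, an HSP90 partner in steroid receptor complexes, was lower (-0.71, 38.5 and 23.9 TPM), a larger difference than that of any tested chaperone gene. After Smyd1, the highest of this list were Cdc37, the kinase-specific co-chaperone, at 51.9 and 49.5 TPM and Ahsa1 at 42.3 and 49.3 TPM. Of 11 genes listed as nucleotide exchange factors only Hyou1, an ER member of the HSP70 superfamily, was higher (0.22, 8.83 and 10.9 TPM). The highest in the list were Bag6 (81.6 and 70.2 TPM), Bag1 (65.6 and 70.5) and Bag3 (43.0 and 47.9). Exchange activity was not measured for any of them. None of 9 prefoldin and TRiC partner genes passed, with Pfdn5 highest at 74.8 and 74.1 TPM, then Pfdn1 (47.8 and 45.9) and Pfdn2 (37.7 and 33.4). Of 12 ER folding enzymes 3 were higher and none lower: Canx (0.10), Pdia3 (0.17) and Pdia6 (0.17), with adjusted p of the exact binomial test of 0.0395, 0.0294 and 0.0488. The highest by level were P4hb (81.5 and 77.5 TPM), Calr (63.7 and 69.4) and Canx (33.9 and 38.6). None of 4 other J-domain genes passed; Sec63, of the ER translocon, was at 7.64 and 7.91 TPM, and Gak, an auxilin of clathrin uncoating, at 4 and 3.61 TPM. The median log2 ratio of the ER folding list was 0.11 and that of the prefoldin list -0.06.

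Which transcript of a chaperone gene was the main one could often be read in the same way from both quantifications. Of the 60 detected genes with 2 or more transcripts, 42 had the same leading transcript in both animals and both tables, and 18 did not. The first table named different leading transcripts in the 2 animals for 4 genes, the second for 6, and for 11 genes the tables differed from each other in both animals. Single transcripts dominated Hsp90ab1 (Hsp90ab1-201, 99.4% and 92.5% of the gene's TPM), Hsp90b1 (Hsp90b1-201, 98.7% and 95.2%), Hspa9 (Hspa9-201, 97.7% and 97.7%), Hspd1 (Hspd1-201, 94.8% and 96.6%), Hspe1 (Hspe1-201, 99.9% and 99.5%) and Unc45b (Unc45b-201, 98.2% and 97.6%). These shares are those of the first table. The second gave less to Unc45b-201 (76.3% and 78.9%) and Hsp90ab1-201 (90.3% and 85.0%), and 98.8% or more to the others named. Hspa8 was divided and uncertain: the first table gave 44.8% and 39.8% to Hspa8-202, to which the second gave 0%, placing Hspa8-201 first. In 3 genes the leading transcript of the first table is not annotated as protein-coding: Cct7-202 (nonsense-mediated decay, 41.9% and 44.8%), Dnajc15-203 (processed transcript, 66.2% and 63.4%) and Dnajc19-205 (retained intron, 61.7% and 63.1%). The second table named the same transcript for Cct7 and Dnajc15 and gave Dnajc19-205 0%.

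Total RNA holds partly spliced molecules, and 39 detected genes have a transcript annotated with a retained intron. The median share of such transcripts was 3.03% in the first table and 3.30% in the second. Above these medians in both tables lay 13 genes, and 5 of them passed 25% in both: Dnaja2 at 42.4% and 54.5%, Hspa4 at 28.3% and 46.2%, Dnajc11 at 29.1% and 51.2%, Dnajc13 at 28.8% and 53.5% and Dnajc9 at 27.4% and 57.2%. The TPM of these genes includes such transcripts. In others the tables went apart, as in Cct3 (36.2% and 2.63%), Dnajc19 (62.4% and 0%) and Hsp90aa1 (22.3% and 0%), so no share is taken from them.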

How the data were processed

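Expected counts, TPM and FPKM per gene and transcript, the percent of a gene's abundance held by each transcript and the interval bounds of TPM (treated as a signal, level not stated) were computed by the authors, in the columns RSEM writes, per the file headers. The second transcript tables hold estimated counts and TPM deposited in the columns kallisto writes. The texts deposited with the tables name mm10 and GENCODE M21. Not given in the sources used here: the aligner, the versions and the use of strand.

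Genes and lists were chosen with earlier results of these data known. The named genes are the HSP90, HSP70, HSP110, TRiC ring, mitochondrial chaperonin and UNC45 genes, the 5 highest of each DNAJ class, and the 6 largest called differences; further genes were named after their values were seen. Expected counts were rounded and scaled by TMM (edgeR 4.0.16). A two-sided exact binomial test with Benjamini-Hochberg adjustment took every gene whose counts summed to at least 20, and ratios had a prior count of 0.5. It was checked on simulated counts with sampling error alone and changes over 2-fold. That check does not cover variation between animals or smaller differences. DESeq2 1.42.0 size factors were an alternative. Second-table transcripts were summed per gene. Windows of 100 bases came from M21 transcripts, and promoters from RefSeq (GRCm38.p6, the assembly of mm10), where 61 of 75 genes matched. FPKM was not used. Floors cover counting error only. A TPM is a share, so abundant RNAs lower all others. The values of 1 partner gene are not reported here.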

Additional observations from a re-analysis of the deposited data

How the results depend on the processing

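No paired analysis was possible because the series has 1 group. With 1 animal left out, 65 genes were detected either way, the median level ran from 9.35 to 10.09 TPM, the Hspa8 share from 60.03% to 60.9%, the Hsp90ab1 share from 84.1% to 85.1%, the Unc45b share from 93.4% to 94.4% and the TRiC spread from 2.14- to 2.45-fold. The comparison between libraries cannot be made without either animal. The second transcript table gave a median of 17.5 TPM, an Hspa8 share of 56.6%, a Unc45b share of 93.1% and a TRiC spread of 2.95-fold; the cause was not tested. Rescaling TPM to nuclear protein-coding genes raised the median to 24.6 TPM by its construction. With the copies of Hspa8 added to it, an alternative chosen after seeing the data, its share was 65.5%. Detection gave 65 genes at 0.5 TPM and 48 at 5 TPM. Library totals gave 25 higher and 1 lower genes in place of 8 and 4, where 19.9% and 4.10% of all genes tested were. Under library totals Hsp90ab1 turned to a log2 ratio of 0.0206 and no longer passed, as did Dnajb4 (-0.08) and Dnajb5 (-0.01) without turning. The ratio of TPM was 0.11 for Hsp90ab1 and 0.0034 for Dnajb5. With no minimum count, Hsp90b1 had an adjusted p of 0.0597 in the exact binomial test. The other scalings, minimum counts, prior count and second table kept all 12 calls and their directions, and none of the 7 alternatives gave a chaperone gene over 2-fold. Some added calls: nuclear protein-coding totals called 16 genes, with Dnaja4, Dnajc27, Hspa9 and Hspa12a also higher. The second table called 13, with Hspa12a also higher. Of all genes tested, 10.1% were higher and 6.20% lower with nuclear protein-coding totals, and 7.16% and 6.80% in the second table. The looser 2-unit heat shock motif was found in 15 genes in place of 4, and the UPR element in 1 in place of the 3 with an ER stress element. Sampling at this depth limits the low genes most: Dnajc24 rested on 45 and 51 counts and Hspa1b on 107 and 142.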

Other observations

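Identical 100-base windows were shared by a minority of the chaperone genes. Copies with mismatches spaced more closely than that, and windows of a gene's other transcripts, were not counted. Of the 65 detected genes, 46 had no 100-base window of the leading transcript in a transcript of another gene, 10 had more than 10% of their windows shared, and 3 more than 50%: Hspa8, Dnaja1 and Hsp90aa1. Gene symbols of the same pattern that are not typed as protein-coding had few counts in the gene table, apart from Cct6a. Besides Cct6a these were 4 processed pseudogenes. Cct3-ps1 and Dnaja1-ps were at 0 counts in both animals, Hspa9-ps1 had 2 and 1 counts (0.04 and 0.02 TPM, but 0.888 and 1.66 TPM in the second table), and Dnajc19-ps had 4.45 and 0.

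The second transcript table gave higher TPM than the first for most of these genes. Its value was 1.57 times the first by the median over the 65 detected genes, from 0.989 for Cct3 to 2.75 for Dnajc11, beside 1.43 for detected protein-coding genes. The ranking Hspa8, Hsp90ab1 also depended on it. In animal 1 the second table gave 422 TPM to Hspa8 and 439 TPM to Hsp90ab1, and in animal 2 627 and 481 TPM. Folds between genes moved as well, and their SD covers the spread between animals only. In the second table Dnaja2 was 3.37- and 3.09-fold above Dnaja1, and Hspa8 227- and 286-fold above Hspa1b.

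In some genes, 2 of them given here, the TPM and the unscaled counts went different ways between the animals. Dnajb14 had 547 and 655 counts but 2.96 and 2.39 TPM, and its leading transcript Dnajb14-201 held 65.9% and 93.3% of the gene. Dnajc24 had 45 and 51 counts but 2.79 and 1.76 TPM, and Dnajc24-201 held 25.4% and 74.4%. With TMM scaling the log2 count ratio was 0.07 for Dnajb14 and -0.0065 for Dnajc24, so the scaled counts of Dnajc24 hardly differed.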
